A study of Drosophila melanogaster with 2 samples.

Results

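The intergenic peaks of CG13123-GFP are the peaks of a ChIP-seq experiment that lie between genes of the fruit fly Drosophila melanogaster. A peak was counted when its summit lay over 500 bp from every annotated transcription start site (TSS) and inside no annotated gene, with transposable elements not counted as genes. This kept 301 peaks, beside 2403 that did not meet the rule (11.1% of all, 95% Wilson interval 10 to 12.4%). The rule used position alone, so signal, flanking genes and sequence were free to vary. Of the 2403 others, 1520 lay within 500 bp of a TSS and are called promoter peaks, 825 lay in introns and 58 in exons.

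The flies were a transgenic line that stably makes CG13123, a protein known by its gene number, fused at its C-terminal end to green fluorescent protein (GFP). Chromatin came from whole embryos of both sexes pooled, 0 to 24 h old, was sheared by sonication, and was precipitated with an antibody against GFP. The only group had 2 biological replicates, numbered 2 and 3, both of which carried the tagged protein. No precipitation from flies without the tag was analysed here, nor was the control against which peaks were called, so DNA that any GFP precipitation would enrich cannot be told apart from binding of CG13123. Whole embryos also mix all cell types and stages of that day, and the lists do not say in which cells a peak arose. No labelled marker of a cell type could be checked in peak lists. Neither the read depth nor the scale of the signal is given in the sources used here, so signals are the authors' values, used only to rank and describe peaks.

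Drosophila intergenic DNA is short compared with that of mammals, and much of it holds enhancers, which raise transcription of a gene from a distance, silencers such as Polycomb response elements, and insulators, which limit the reach of enhancers. Insulator proteins such as CTCF recognise a DNA word, while many factors seen at such sites are brought by other proteins. A ChIP-seq summit marks where precipitated fragments pile up and not which protein touched the DNA. The nearest gene of an intergenic peak is a label of its place, not a known target.

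Peaks of high signal show what these sites look like, and 5 windows that reach 100 bp to each side of a summit are printed to show how little they share by eye. The bases are the + strand of Release 6 (dm6) from RefSeq, 5′ to 3′. Capitals mark matches, on either strand, to any of 14 motifs searched, and lower case carries no meaning. Names give the neighbouring genes to the left and right.
lncRNA:CR45641 / lncRNA:CR45643, chr3R:16222378-16222578: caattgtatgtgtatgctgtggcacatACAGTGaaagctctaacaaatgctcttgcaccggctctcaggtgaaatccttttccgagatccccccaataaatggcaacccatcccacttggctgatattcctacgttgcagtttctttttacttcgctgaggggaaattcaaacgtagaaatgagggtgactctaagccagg
COX7AL2 / CG31668, chr2L:2202329-2202529: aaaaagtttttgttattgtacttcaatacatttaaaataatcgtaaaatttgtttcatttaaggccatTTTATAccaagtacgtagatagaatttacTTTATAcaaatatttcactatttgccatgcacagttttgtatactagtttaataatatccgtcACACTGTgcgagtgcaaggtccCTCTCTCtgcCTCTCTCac
C15 / sp3, chr3R:21520250-21520450: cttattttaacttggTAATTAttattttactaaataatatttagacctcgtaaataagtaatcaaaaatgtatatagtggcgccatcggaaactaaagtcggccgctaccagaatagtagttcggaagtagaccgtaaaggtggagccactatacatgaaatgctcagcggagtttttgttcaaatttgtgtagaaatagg
CG3149 / lncRNA:CR42794, chrX:5696439-5696639: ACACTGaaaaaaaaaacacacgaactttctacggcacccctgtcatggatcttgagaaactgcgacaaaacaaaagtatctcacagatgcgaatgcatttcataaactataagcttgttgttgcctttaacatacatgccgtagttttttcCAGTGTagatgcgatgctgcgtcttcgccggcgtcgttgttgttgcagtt
lncRNA:CR45643 / tara, chr3R:16224379-16224579: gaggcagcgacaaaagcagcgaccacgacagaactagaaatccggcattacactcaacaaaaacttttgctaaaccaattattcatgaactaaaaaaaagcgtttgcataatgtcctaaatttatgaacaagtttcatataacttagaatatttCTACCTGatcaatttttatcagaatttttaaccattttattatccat
The first window holds 1 match to the word ACAGTG. The second holds ACAGTG and ACACTG overlapping on opposite strands, beside TATAAA and GAGAGAG matches. The third has a homeodomain word, TAATTA, the fourth 2 matches to ACACTG, and the fifth the Zelda word CAGGTAG. No motif was common to the 5 windows. Members ranked 7, 8 and 9 by signal are not printed, although they rank above the fifth window. They lie at CG43131 / RabGGTa, lncRNA:CR44603 / lncRNA:CR45695 and lncRNA:CR44853 / lncRNA:CR44854. Their windows hold neither ACAGTG nor ACACTG.

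The strongest intergenic site had as its farther neighbour a Polycomb group gene, of the kind that keeps developmental genes silent. It sat at chr2R:13035173-13035515 with a signal of 797, 15th in the whole list, between Su(z)2 and CG13323. Replicate 2 gave this peak 474 and replicate 3 gave it 319, which ranked it 16th and 20th of their own lists. Its summit was 27429 bp beyond the end of Su(z)2, a Polycomb group gene and paralogue of Psc, and 11916 bp from the nearest TSS, that of CG13323. It stood well above the next member in the joint list and in each replicate.

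On the other side of Su(z)2 and Psc lay 3 further peaks, in the 10284 bp between CG13321 and Psc, which encodes a subunit of Polycomb repressive complex 1. They had signals of 282, 94.1 and 265. The first gave 152 in replicate 2 and 126 in replicate 3, and the third 142 and 127. The summits of the first pair were so close (chr2R 12958216 and 12958415) that their intervals share sequence. Psc also had a promoter peak in the list, while Su(z)2 had none.

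The second highest member, with a signal of 515 (306 in replicate 2 and 206 in replicate 3), lay 917 bp before lncRNA:CR45643, a long noncoding RNA gene upstream of tara. taranis, as that gene is called, is genetically a trithorax group member and keeps genes active. A second peak, beyond that noncoding gene, with 305 (190 and 121), lay 1172 bp from tara itself. Both are among the windows shown above, and both ranked in the first 200 of either replicate.

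Metabolic and cell cycle genes flanked the next sites. The peak between COX7AL2, related to a subunit of cytochrome c oxidase, and CG31668 had a signal of 417, with 245 in replicate 2 and 170 in replicate 3. The one between blw, the alpha subunit of ATP synthase, and CycB, a mitotic cyclin, had 411 (234 and 182), inside a gap of 1340 bp where both genes end. By TSS distance these sites are alike, at 3737 bp for the first and 3346 bp for the second. The first lies 1292 bp from the end of CG31668 and the second 564 bp from the end of CycB.

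Regulators of development made up several others of the 20 highest. C15, a homeobox gene needed in leg and dorsal tissue, ended 7536 bp from a peak of 392 (219 in replicate 2 and 171 in replicate 3), which lies nearer to its other neighbour, 578 bp before sp3. SoxN, a Sox factor of the nervous system, had a peak of 293 (177 and 104) at 16443 bp. The forkhead genes slp1 and slp2, which act in segmentation, had a peak of 272 (151 and 121) between them. zfh2, a zinc finger and homeodomain gene on chromosome 4, had one of 270 (172 and 99.3), and foxo, the transcription factor of insulin signalling, one of 260 (151 and 113).

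The rest of the 20 highest flanked genes of other roles. RabGGTa, a subunit of the enzyme that adds lipids to Rab proteins, and CG43131 had a peak of 348 (174 in replicate 2 and 174 in replicate 3). CG3149 and lncRNA:CR42794 had 351 (193 and 156), lncRNA:CR44603 and lncRNA:CR45695 had 339 (188 and 147), and lncRNA:CR44853 and lncRNA:CR44854 had 309 (183 and 122). jp, the junctophilin of excitable cell membranes, had 303 (172 and 129), and RasGAP1, a negative regulator of Ras, had 298 (170 and 132). CG17896 and CG17778 had 289 (175 and 109), and Inx2, a gap junction protein, with cm, an adaptor subunit of vesicle traffic, had 281 (177 and 108). Each of the 20 was present in both replicates, and no replicate value of theirs fell below 99.3. They were picked by the joint signal of these replicates, so high values in both are partly set by that choice.

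As a class, intergenic peaks were weaker than promoter peaks and close to intronic ones. Their signal ran from 75.5 to 797 with a median of 104 (quartiles 87.8 and 143). The median was 119 for promoter, 107 for intron and 112 for exon peaks. In a list of equal length made from replicate 2's own highest peaks, the medians were 64.5 for 280 intergenic, 69.4 for promoter and 64.9 for intronic peaks. In replicate 3's such list they were 47.8 for 291 intergenic, 50.7 for promoter and 46.8 for intronic peaks. The order against promoters was thus the same in each replicate, while that against introns turned. Of the 100 highest peaks of the list 5 were intergenic and of the 500 highest 39. Distance made little difference within the class, with a median signal of 106 for the 59 peaks at 500 to 1000 bp from a TSS and 103 for the 38 beyond 10 kb. The bins between gave 117, 96.2 and 109. Width went with signal, since 247 members had the width of 400 bp that is also the median of the list, with a median signal of 96.8, and the 54 narrower ones had 214.

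**Figure D1:**
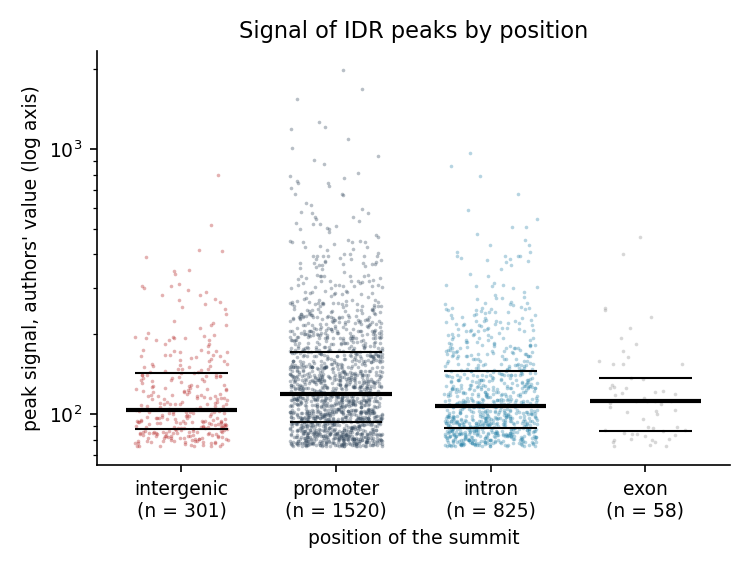
Peak signal (the authors' value, log axis) of every peak in the list, split by where the summit lies; each point is 1 peak, the thick line is the median and the thin lines are the quartiles. The intergenic median of 104 lies below the promoter median of 119, and 1 intergenic peak, at 797, stands apart from the others.

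Fewer intergenic peaks than promoter peaks passed from the relaxed list to the final one. The authors' relaxed list of both replicates, 30000 peaks and background, fed the irreproducible discovery rate (IDR), which keeps peaks that rank alike between replicates. The final list is called the IDR list and holds 9.01% of the relaxed ones over all positions. It holds exactly the peaks of highest joint signal, so a share of relaxed peaks in it is a cut on signal. Such a share does not compare positions by replicate agreement. Of 5157 intergenic relaxed peaks, 301 were in the IDR list, or 5.84% (Wilson interval 5.23 to 6.51%). The share was 16.9% at promoters, 6.67% in introns and 1.67% in exons. Intergenic minus promoter was -11.1 percentage points (95% Newcombe interval -12 to -10), and intergenic minus intron was -0.833 points (-1.59 to -0.0357). The first difference is large beside its interval, and the second only just excludes 0. All such intervals cover counting error over peaks. Peaks of 1 experiment are not replicates of a condition, so no p-value is attached to any of them.

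Nearly all intergenic peaks were found in both replicates. A relaxed summit within 100 bp was present in both for 293 of 301 (97.3%, Wilson interval 94.8 to 98.6%), against 95.4% of the other IDR peaks, a difference of 1.92 points (-0.693 to 3.51). Each replicate alone had 297. The remaining 8 had their nearest summit in the missing replicate between 114 and 215 bp away, and 1 of them lies beside Doc2, a T-box gene of heart and amnioserosa, with a joint signal of 154. Ranks were less shared than presence among members, and the rank counts were not made for other positions. Ranked alone, and kept to as many peaks as the IDR list has, replicate 2 held 251 members and replicate 3 held 244, and 199 (66.1%) were in both. Of replicate 2's own 280 intergenic peaks, 197 (70.4%, 64.8 to 75.4%) had a summit within 100 bp in replicate 3's own list. The joint relaxed list, ordered by signal, begins with exactly the IDR peaks, so presence in both is partly set by that choice.

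Signals of the 293 shared peaks ran from 22.4 to 474 (median 62.9) in replicate 2 and from 9.89 to 319 (median 45.5) in replicate 3. Replicate 2 exceeded replicate 3 by a median of 0.44 on the log2 scale (quartiles 0.18 and 0.78). Across these peaks Spearman's rho was 0.606 and Pearson's r on the log2 scale 0.706, a description over sites that share 2 libraries. Single members of ordinary signal differed widely between replicates. A peak beside Gr93a, a gustatory receptor gene, gave 55.1 in replicate 2 and 9.89 in replicate 3, and one between Bap111 and His3.3B gave 72.8 and 14.2.

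**Figure D2:**
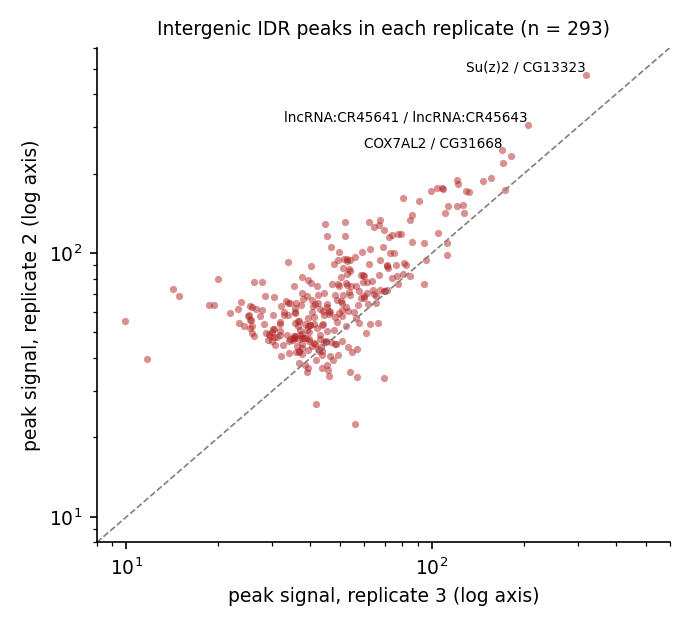
Signal of the 293 intergenic peaks found in both replicates, replicate 3 on the x axis and replicate 2 on the y axis (authors' values, log axes); the dashed line marks equal values. Most points lie above the line, and the 3 labelled peaks are the 3 highest of the joint list.

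Intergenic peaks lay closer to genes than intergenic DNA does. Summits were a median of 2567 bp from the nearest TSS (quartiles 1266 and 5403, maximum 36669). The median over all eligible bases, those over 500 bp from every TSS and in no gene, was 5886 bp. Most of that closeness was shared by weak peaks, since 4794 intergenic relaxed peaks away from any IDR summit, called background peaks here, had a median of 3030 bp. By distance, 59 members were within 1000 bp, 65 between 1 and 2 kb, 98 between 2 and 5 kb, 41 between 5 and 10 kb and 38 beyond 10 kb. The share within 1000 bp was 19.6% of members (15.5 to 24.5%), 15.4% of background peaks (14.4 to 16.5%) and 7.79% of eligible bases. Members were fewer at 5 to 10 kb, 13.6% (10.2 to 18.0%) against 21.0% (19.9 to 22.2%).

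The limit of 500 bp cuts through a continuous range. Just inside it, members lay 510 bp from Dyro (signal 107), 513 bp from CG10479 (191) and, tied, 514 bp from CG5973 (173) and 514 bp from CG17896 (289). The 3 peaks just outside were 495 bp from Poxm (158), 486 bp from CG12402 (101) and 484 bp from CG42571 (81.2).

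**Figure D3:**
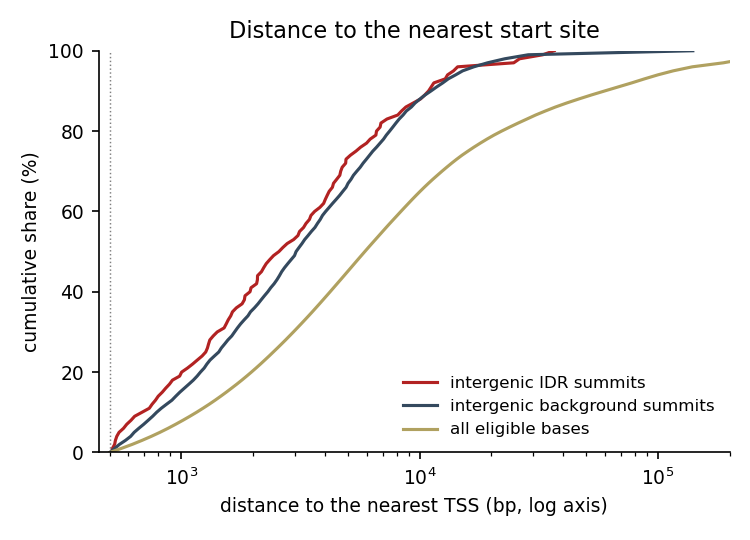
Cumulative share (y axis, %) of intergenic IDR summits, intergenic background summits and all eligible bases by distance to the nearest TSS (x axis, bp, log axis); the dotted line marks the limit of 500 bp. The member curve, with its median at 2567 bp, runs a little to the left of the background curve (3030 bp), and both lie far to the left of the eligible bases (5886 bp).

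Peaks were densest in short gaps. A gap is the stretch between the nearest annotated gene on either side, and 236 of 6528 gaps held a member. Over all 36.3 Mb of eligible sequence the density was 8.3 peaks per Mb (exact Poisson 95% interval 7.39 to 9.29). It was 24.5 (17.2 to 34.0) in gaps of at most 2 kb, 18.7 (14.2 to 24.1) at 2 to 5 kb and 10.7 (8.1 to 13.8) at 5 to 10 kb. It was 9.64, 6.88 and 1.79 at 10 to 20 kb, 20 to 40 kb and beyond. The share of relaxed peaks that were in the IDR list went from 7.07% (5.15 to 9.64%) in the shortest to 4.96% (3.20 to 7.62%) in the longest gaps, with overlapping intervals. The density of weak and strong peaks thus followed gap length together. How much of the longest gaps could be mapped with reads was not tested.

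Divergent gaps held somewhat more members than their share of sequence. Divergent gaps, where both genes start, held 78 members (25.9%, 21.3 to 31.1%) and 20.4% of eligible bases, tandem gaps 154 (51.2%) and 50.3%, and convergent gaps 69 (22.9%) and 25.6%. The densities were 10.6 (8.35 to 13.2), 8.44 (7.16 to 9.89) and 7.43 (5.78 to 9.40) per Mb. The interval of divergent gaps lies just above their share of bases and above the overall 8.3, while it overlaps those of the other orientations. The share of relaxed peaks in the IDR list was 5.76% in divergent, 5.87% in tandem and 5.88% in convergent gaps, against 5.84% over all. Relaxed intergenic peaks were thus spread over gap types in much the same way as members. The nearest gene was reached at its start for 145 members and at its end for 156, and 46 summits lay within 500 bp of a gene end. The rule leaves out summits within 500 bp of a start but not of an end, so this split is partly set by it.

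The left arm of chromosome 3 held the most members, 101 of 301. Its density was 11.3 per Mb (9.18 to 13.7), against 7.32 (6.34 to 8.41) over the other arms together. The arm 2L had 10.1, 3R 6.92, X 5.91 and 2R 5.78 per Mb, and chromosome 4 had 5 peaks, or 20.4 per Mb (6.62 to 47.6). The share of intergenic relaxed peaks in the IDR list hardly varied, from 5.2% on 3R to 6.16% on 3L (5.10 to 7.43%), so relaxed peaks were spread over the arms in much the same way.

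**Figure D4:**
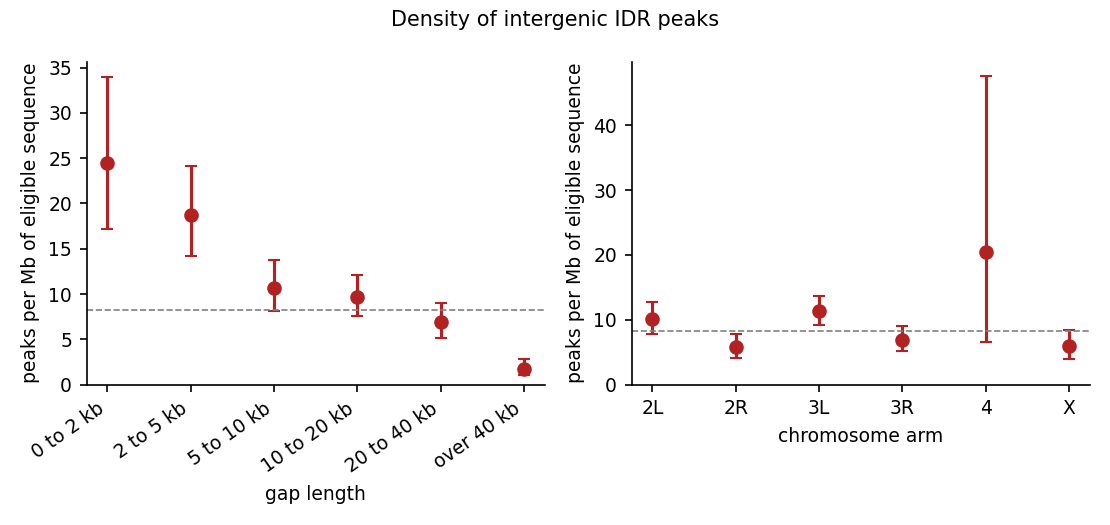
Intergenic IDR peaks per Mb of eligible sequence (y axes) by gap length (left panel) and by chromosome arm (right panel); points are densities, bars are exact Poisson 95% intervals and the dashed line is the density of 8.3 over all eligible sequence. Density falls from 24.5 in the shortest to 1.79 in the longest gaps, and chromosome 4, with 5 peaks, has the widest interval.

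Many members came in groups within 1 gap. A single member was found in 192 gaps, 31 held a pair and 13 held 3 or more, so 109 members shared a gap with another. Some of these summits have overlapping intervals, and 295 members were left when overlapping peaks were joined. Grouping was not particular to members. Another IDR peak of any position lay within 5 kb of 41.2% of members, 39.2% of promoter, 46.4% of intronic and 46.6% of exon peaks. The fullest gap, 19063 bp between lncRNA:CR44363 and CG7560 on 3L, held 6, with signals of 82.6, 148, 75.8, 131, 123 and 91.5. That gap had 25 relaxed peaks in all. Of these 6, the highest (148) is a little above the upper quartile of the class, and 1 (131) had no summit within 100 bp in replicate 3.

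The longest gap with members, 75047 bp between NijA, a cell surface protein gene, and CG43245, held 5 with signals from 87 to 225. It contained 3 of the 5 summits farthest from any TSS, at 36669, 32864 and 31936 bp. The other far summits lay 33847 bp from vvl, a POU domain gene of trachea and nervous system, and 33835 bp from lncRNA:CR46353. The latter faces rpr, the cell death gene reaper, 39715 bp away. All 5 are on 3L, and their signals (87, 93.4, 144, 128 and 82.7) are ordinary for the class.

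Other crowded gaps have neighbours of varied kinds. The 20910 bp between lncRNA:CR44603 and lncRNA:CR45695 held 4 peaks (84.6, 191, 339 and 152), and the nearest protein-coding gene on the right is chinmo, a zinc finger gene of neuronal timing, 7846 to 22968 bp from them. The gap of 70507 bp beside vvl held 4, of 82.4, 76.9, 128 and 123. Between CG7320 and lncRNA:CR45935 lay 4, with the highest at 105, and between COX7AL2 and CG31668 lay 3, of 135, 193 and 417. On 3L, 3 each lay between lncRNA:CR45411 and lncRNA:CR43785 (184, 124 and 153), between tRNA:Ile-TAT-1-2 and CG13898 (138, 98.2 and 167), and in the short gap of RasGAP1 and CG10809 (298, 109 and 90). In that last gap every relaxed peak was an IDR peak, 3 of 3.

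Most members had a protein-coding gene as their nearest neighbour, 204 of 301, while a noncoding RNA gene was nearest for 88 and a tRNA gene for 9. At least 1 neighbour was a noncoding RNA gene for 154 (51.2%). Long noncoding RNA genes flanked 153 members and 2494 of the 5157 intergenic relaxed peaks. Of those 2494, 6.13% were in the IDR list, close to the 5.84% over all intergenic relaxed peaks. Nearest neighbours by kind were not counted for relaxed peaks. Only 2 members lay in transposable elements, beside ed and between del and E2f2, or 0.664% (0.182 to 2.39%) against 2.11% of background peaks. The intervals of 24 members reached into a gene although their summits did not.

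Whether genes beside members are bound more or less often at their own promoters was not resolved by these counts. Of the 450 genes that flank a member, 42 (9.33%, 6.98 to 12.4%) had an IDR promoter peak, against 937 of 8867 other genes beside eligible gaps (10.6%). The difference was -1.23 points (-3.68 to 1.87). Members with at least 1 such flanking gene numbered 51 (16.9%).

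Lists of genes by role were read against all genes beside eligible gaps, of which 450 of 9317 (4.83%) flank a member. Genes in longer gaps have more chances, so density per Mb of their own gaps is given too, and no test was made. Polycomb and Trithorax group genes had 4 of 15 (26.7%), Su(z)2, Psc, ph-d and ph-p, with 6 peaks and 89.6 per Mb (32.9 to 195). ph-d and ph-p, a tandem pair that encodes polyhomeotic proteins of the same repressive complex, share a gap whose higher peak had 216 (134 in replicate 2 and 84.7 in replicate 3). Psc, ph-d and ph-p also carried IDR promoter peaks. The 4 genes stand in 2 neighbourhoods, so they are not independent of each other. The list does not hold tara.

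Transcription factors of development, whose gaps are often long, flanked a larger share than all genes do. In 6 lists joined, 33 of 205 genes (16.1%) flanked 40 of the 301 members, at 13.3 per Mb (9.50 to 18.1) against 8.3 over all sequence. Their relaxed peaks were in the IDR list at 5.08%, close to the 5.84% of all. T-box, GATA, Fox and Sox genes stood at 11 of 31, with 13 peaks and 31.1 per Mb (16.6 to 53.2), led by SoxN, foxo, Sox21a and Sox21b. The last pair shares a peak of 166 (76.2 and 94.4). Of the 165 relaxed peaks beside T-box, GATA, Fox and Sox genes, 7.88% were in the IDR list. Segmentation genes stood at 7 of 30, where ptc, the Hedgehog receptor, had 167 and oc, the head gap gene orthodenticle, had 109. Other homeobox genes stood at 12 of 67, with C15, zfh2, vvl (highest peak 128) and tup, the islet homologue (114). Zinc finger and other regulators stood at 4 of 51, with chinmo (197), aop, an ETS repressor (160), Blimp-1 (94.9) and lola (89.3). No member flanked any of 8 Hox genes or 28 bHLH genes, whose gaps hold 0.0546 and 0.0955 Mb, with upper limits of 67.6 and 38.6 peaks per Mb that include the overall density.

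Signalling and adhesion genes gave small counts. Ligands stood at 4 of 27, namely the fibroblast growth factors pyr and ths, which share a peak of 107, and Wnt4 and wg, which share one of 84.6. Receptors and inhibitors stood at 4 of 27, with sty, the feedback inhibitor Sprouty (175), ptc, fz, a Wnt receptor (108), and fng, which modifies Notch (78.0). Axon guidance and cell adhesion genes stood at 6 of 77, among them dpr17 (167), ed (145), robo2 (143) and DIP-delta (126). tRNA genes stood at 12 of 84 with 14 peaks and 24.7 per Mb (13.5 to 41.5), led by tRNA:Ser-GCT-2-2, which shares its gap with foxo. Of the 149 relaxed peaks beside tRNA genes, 9.4% were in the IDR list, against 5.84% of all intergenic relaxed peaks. Long noncoding RNA genes stood at 124 of 1388 (8.93%) with 153 peaks and 10.5 per Mb (8.94 to 12.4).

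The remaining lists gave 2 genes at most. Cytoplasmic ribosomal protein genes stood at 2 of 49, RpLP0 (119) and RpS23 (101), although 28 of those 49 had an IDR promoter peak. Chemoreceptor genes stood at 2 of 114, Gr89a (133) and Gr93a (96.0), and cuticle genes at 1 of 84, Cpr76Ba (132). Muscle genes stood at 1 of 24, Act87E (96.9), microRNA genes at 1 of 24, mir-4981 (253), architectural protein genes at 1 of 7, mod(mdg4) (109), and ecdysone response genes at 1 of 14, ImpL2 (91.3). Mitochondrial ribosomal protein genes had 0 of 19 and heat shock genes 0 of 13. Lists this small say little, since 1 gene moves each share by several points.

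In base composition members were AT-rich. The median GC content within 100 bp of a summit was 35.3% (quartiles 30.8 and 39.8%), against 37.3% in background windows and 41.3% in 177339 windows of the same length tiled over eligible sequence. Other IDR peaks had medians of 34.3% at promoters, 35.3% in introns and 37.1% in exons, so low GC content was not particular to members. Any motif share below therefore compares windows of unequal GC content, whose part was not tested.

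Both 6-base words, ACAGTG and ACACTG, were more common at members than at weaker intergenic peaks. They were chosen from earlier results of these data on all IDR peaks, which include the members, so their excess is not independent evidence. ACAGTG was in 50 of 301 windows (16.6%) and 9.74% of background windows, a difference of 6.87 points (2.99 to 11.6), and in 7.05% of tiled windows. ACACTG was in 61 (20.3%) and 11.1%, a difference of 9.19 points (4.94 to 14.2), and in 7.12% of tiled windows. Both were searched on either strand. ACAGTG and the reverse complement of ACACTG overlap by 5 bases, so 1 site can count for both. In windows of only 50 bp to each side the differences were 2.47 and 1.01 points, with intervals that included 0. Either word was in 98 members (32.6%) against 18.0% of background windows. Members with a word had a median signal of 110 and those without 103, and 7 of the 20 highest had one. At promoter peaks the words stood at 18.2% and 20.4% and at intronic peaks at 24.1% and 18.4%. Members were thus below intronic peaks for ACAGTG, with a difference of -7.51 points (-12.4 to -2.11), and did not differ beyond counting error in the other 3 comparisons.

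The words did not sit at the summit itself. Counted in steps of 25 bp away from the summit, word matches per 100 member windows were 7.31, 8.31, 11.6, 15.3, 14.3, 7.31, 4.32 and 7.31. The highest value lay 75 to 100 bp out (15.3, exact Poisson interval 11.2 to 20.4). Promoter peaks reached 13.3 at 50 to 75 bp and intronic peaks 16.4 at 75 to 100 bp, while background peaks declined from 6.24 to 3.98. Within 100 bp, 47 of 124 member matches (37.9%, 29.8 to 46.7%) were within 50 bp, against 52.2% (49.2 to 55.2%) of background matches. Positions were examined after the word shares had been seen.

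**Figure D5:**
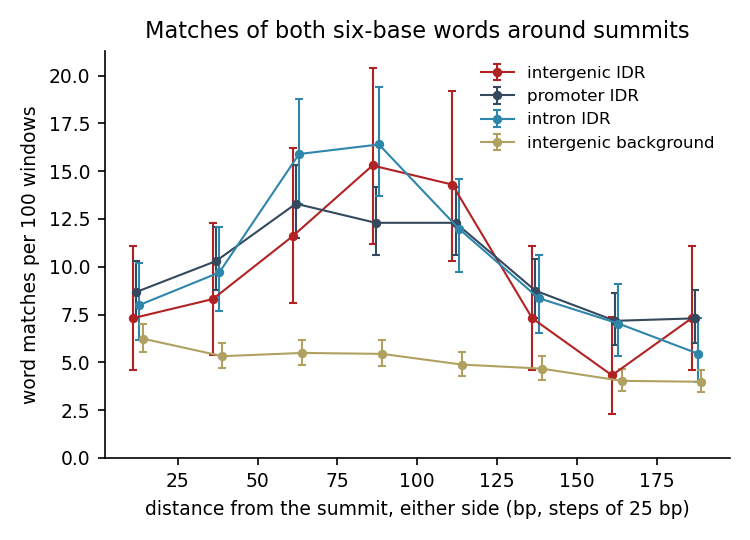
Matches of either word per 100 windows (y axis) by distance from the summit to either side (x axis, bp, steps of 25 bp), for intergenic, promoter and intronic IDR peaks and intergenic background peaks; points are rates and bars are exact Poisson 95% intervals. The 3 kinds of IDR peak rise to between 13.3 and 16.4 at 50 to 100 bp from the summit, and the background declines from 6.24.

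The core of the CTCF site was more frequent at intergenic IDR peaks than at weaker intergenic, promoter or intronic ones. AGNNGGCGC, on either strand, was in 17 of 301 windows (5.65%, 3.56 to 8.86%). It was in 2.13% of background, 2.43% of promoter, 2.55% of intronic and 1.28% of tiled windows. The difference was 3.52 points (1.38 to 6.75) from background, 3.21 (0.935 to 6.49) from promoter and 3.10 (0.632 to 6.43) from intronic peaks. The 17 members held 21 matches, 12 of them within 50 bp of the summit. Their signals ran from 81.1 to 411 with a median of 117, against 104 for all members, and they include the peaks of blw and CycB (411) and of jp (303). These are intervals for 14 motifs with no adjustment, and the word GGCGC is itself GC-rich.

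The matches are printed below, all but those on 1 chromosome arm, because their flanks show how far they go beyond the core. Each line gives the neighbours, then 31 bases (dm6, strand of the match, 5′ to 3′, RefSeq) with the core in capitals. The list was drawn up after the share was seen.
jp / lncRNA:CR44149, chr2L:9567473-9567503, - strand: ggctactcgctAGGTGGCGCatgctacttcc
lncRNA:CR45303 / lncRNA:CR45693, chr2L:14502804-14502834, + strand: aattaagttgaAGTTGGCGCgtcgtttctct
osp / CG15282, chr2L:14706327-14706357, - strand: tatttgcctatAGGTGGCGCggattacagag
Sox21a / Sox21b, chr3L:14111633-14111663, + strand: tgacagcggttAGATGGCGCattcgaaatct
Sox21a / Sox21b, chr3L:14111522-14111552, - strand: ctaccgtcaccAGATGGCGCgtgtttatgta
CG43131 / RabGGTa, chr3R:5126998-5127028, - strand: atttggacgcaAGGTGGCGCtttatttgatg
Cad89D / Gr89a, chr3R:16497512-16497542, - strand: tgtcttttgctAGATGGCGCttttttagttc
Jhbp1 / CG14662, chr3R:4970775-4970805, + strand: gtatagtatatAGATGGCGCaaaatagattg
Jhbp1 / CG14662, chr3R:4970803-4970833, + strand: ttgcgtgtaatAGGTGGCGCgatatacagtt
Fancm / lncRNA:CR44032, chr3R:21487970-21488000, + strand: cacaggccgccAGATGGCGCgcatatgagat
CG7320 / lncRNA:CR45935, chr3L:18212199-18212229, - strand: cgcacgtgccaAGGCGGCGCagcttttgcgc
Bap111 / His3.3B, chrX:9152223-9152253, + strand: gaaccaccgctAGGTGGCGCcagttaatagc
ImpL2 / asRNA:CR45738, chr3L:4239613-4239643, - strand: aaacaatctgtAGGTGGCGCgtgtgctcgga
asRNA:CR44018 / CG6465, chr3R:10648861-10648891, + strand: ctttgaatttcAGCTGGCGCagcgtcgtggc
lncRNA:CR45624 / sbr, chrX:10832553-10832583, - strand: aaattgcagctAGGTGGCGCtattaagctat
lncRNA:CR45624 / sbr, chrX:10832502-10832532, - strand: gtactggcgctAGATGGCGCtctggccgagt
Of the 21 matches, 8 read GT and 7 read AT at the open positions. The summit between Bap111 and His3.3B was 2 bp from the centre of its match and that between Cad89D and Gr89a 8 bp. The peak of jp had signals of 172 in replicate 2 and 129 in replicate 3, that of Sox21a and Sox21b 76.2 and 94.4, and that of Bap111 72.8 and 14.2. A match is a description of letters, and no CTCF data were examined.

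Core promoter words that mark promoter peaks were rare at intergenic ones, as they were at intronic ones. Summits within 500 bp of a TSS are promoter peaks by the rule, so a lower share elsewhere is partly set by it. Motif 7, a core promoter motif, was in 0.664% of members and 11.4% of promoter peaks, a difference of -10.7 points (-12.5 to -8.43), with 1.65% in background and 1.55% in tiled windows. The DNA replication element TATCGATA, which DREF and BEAF-32 recognise, had shares of 0.664% and 8.22% (-7.56 points, -9.12 to -5.41; 0.443% of tiles). GGTCACAC, the core of motif 1 bound by M1BP, was in 0.332% and 3.68% (-3.35 points, -4.46 to -1.61; 0.269% of tiles). At intronic peaks these 3 words stood at 1.82%, 0.242% and 0.485%. For the same words members did not differ from background windows beyond counting error in the main list. Under other settings, motif 7 was lower with a TSS limit of 1000 bp (-1.78 points). The DNA replication element was higher with a limit of 200 bp (0.969 points).

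Words of developmental factors gave 1 lower and 1 slightly higher share. CAGCTG, an E-box bound by bHLH proteins, was in 3.32% of members, 6.76% of background, 11.2% of promoter and 6.92% of tiled windows, a difference from background of -3.44 points (-5.12 to -0.668). CAGGTAG, the word of the early activator Zelda, was in 6 members (1.99%) and 0.834% of background windows, a difference of 1.16 points (0.0414 to 3.46), with 0.888% in tiles. The Zelda interval included 0 in 10 of 11 alternatives, with differences of 0.474 to 1.45 points. That of the E-box included 0 with a TSS limit of 200 bp (-2.32) and in windows of 50 and 200 bp (-1.32 and -3.73). GATAAG stood at 10.6% against 8.76% (7.97% of tiles), TAATTA at 15.6% against 16.6% (14.2%), TGGGAA of Su(H) at 9.30% against 12.6% (12.1%), GAGAGAG at 2.33% against 2.11% (2.19%), TATAAA at 29.9% against 31.1% (23.2%) and CACACACA at 2.66% against 4.21% (3.98%). None of these last 6 differed from the background beyond counting error in these windows, though 3 did under other settings. TGGGAA was lower with a TSS limit of 200 bp (-3.33 points), with whole peaks outside genes (-4.54) and in the stronger 50% of peaks (-6.43). GAGAGAG was higher without replicate 2 (2.75) and in windows of 200 bp (2.97), and CACACACA lower in windows of 50 bp (-1.90).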

How the data were processed

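Chromatin precipitated with anti-GFP was sequenced for 2 biological replicates of 1 group. Per the labels and the deposited lists of files, the authors called relaxed peaks with a control, per replicate and on both together, and then applied IDR. The caller, aligner, IDR threshold and depth of reads were not given in the sources used here. The signal of each peak is the authors' deposited value, of unstated scale. Only the dm6 lists were used.

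Summits were classed with Ensembl release 115 and bases came from RefSeq Release 6. Background peaks were intergenic relaxed peaks over 500 bp from every IDR summit. Shares have 95% Wilson, differences Newcombe and densities exact Poisson intervals, which cover counting error only. There was no comparison of conditions and no p-value. Motifs (14) were searched 100 bp to each side of a summit. Functions were tested on simulated data. Python 3.11.15, numpy 2.4.6, pandas 2.3.3, scipy 1.17.1 and matplotlib 3.10.9 were used.

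The members, motifs and 21 gene lists were chosen with earlier results of these data known. The homeobox entries cv-c and ftz-f1, which hold no homeobox, were removed and 1 list was renamed after values were seen. Of 3961 list symbols, 17 matched no gene. Named genes flank the 20 highest peaks, the 10 fullest gaps, the 5 farthest summits and the 3 summits on either side of the limit, with up to 4 per list by signal. Members cited for loose replicate agreement or a missing replicate, and the CTCF lines, were chosen after seeing values. Sequences on arm 2R are not printed. Alternatives were TSS limits of 200 and 1000 bp, coding genes alone, whole peaks outside genes, joined peaks, the stronger 50% of peaks, other windows and summit distances, no transposable elements, and each replicate left out.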

Additional observations from a re-analysis of the deposited data

How the results depend on the processing

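The number of members was 461 with a TSS limit of 200 bp and 130 in the stronger 50% of the list, and 280 to 291 when 1 replicate was left out. The share of relaxed intergenic peaks in the IDR list was 7.47% and 2.52% under those 2 settings. Intergenic minus promoter median signal was -8.22 at 200 bp, -9.57 with protein-coding genes only and -12.5 with whole peaks outside genes, and lay from -4.84 to -2.97 when 1 replicate was left out, on the other's own scale. Intergenic minus intronic median signal, -2.31 in the main list, turned to 0.0641 with coding genes only, 0.25 with whole peaks outside genes and 0.934 without replicate 2 (-0.379 without replicate 3). The median TSS distance was 1190 bp at 200 bp, 3574 bp at 1000 bp, 4223 bp with coding genes only, 2973 bp with whole peaks outside genes, 2094 bp in the stronger 50%, and from 2571 to 2702 bp when 1 replicate was left out. The median gap was 4854, 11550, 17469, 10428, 9740 (overlapping peaks joined), 9904 and 10116 to 10192 bp in the same order. The share of members beside developmental factors was 19.5% with coding genes only. Presence in both replicates was 74.4% within 50 bp and 99.7% within 200 bp, and the overlap of the highest peaks was 57.1% within 50 bp. Other TSS limits change count and distance by construction; for the other changes the cause was not tested.

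The number of the 14 motifs that differed from background was 5 and became 2 once windows reached 50 bp either way, the CTCF core and CACACACA, which is not among the 5 (4 or 5 elsewhere, where Zelda was lost and TGGGAA gained with whole peaks outside genes). The CTCF core differed under all 11 alternatives run for motifs, and the Zelda word lost its difference in 10 of them. Values that changed sign, in points against background, were 0.969, 0.0557, 0.0298, 0.00764 (-0.482 without replicate 3) and 0.247 for the DNA replication element (200 bp limit, coding genes only, no transposable elements, without replicate 2, 50 bp windows), 0.346 and 0.0473 for motif 7 (200 bp limit, 200 bp windows), 1.66, 0.924 and 1.67 for TATAAA (200 and 1000 bp limits, without replicate 2; -0.862 without replicate 3), 0.411 and 1.35 for TAATTA (without replicate 2, 50 bp windows; -1.94 without replicate 3), -0.46 for GAGAGAG (50 bp windows) and -0.231 for GGTCACAC (200 bp windows). None of these words differed beyond counting error in the main list, while the DNA replication element was higher with the 200 bp limit. The cause was not tested. No paired analysis was possible because there was 1 group. The unknown depth leaves the precision of each signal unknown.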
